A study of Homo sapiens with 9 samples.

Results

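The integrated stress response and the unfolded protein response were followed here through 34 genes of 38021 in the count table, in 9 RNA-seq libraries of 786-O cells. The 34 members are the rows named for ATF4, for genes that ATF4 is known to induce, for the sensors of stress in the endoplasmic reticulum (ER), and for ER chaperones and degradation factors. All 34 had a row. PHGDH, the first enzyme of serine synthesis, had 0 to 2 reads in every library and was not tested, which leaves 33 members with a test in each comparison.

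786-O is an established human cell line from a clear cell renal cell carcinoma (ccRCC) that lacks functional VHL, so HIF2α is stable in it at normal oxygen. All groups had been infected with lentivirus carrying a short hairpin RNA (shRNA) in a PLKO.1 vector and were selected and kept in puromycin. They expressed a control shRNA (shControl), an shRNA against ARNT (shARNT) or an shRNA against BMAL1 (shBMAL1, gene row ARNTL), with 3 libraries labelled as biological replicates in each group and 1 shRNA sequence per target. The comparison asks how far ARNT, the usual partner of HIF2α, and its paralogue BMAL1, a core clock factor, each contribute to gene expression in these cells. Both knockdowns were set against the same 3 shControl libraries. The labels do not say whether the replicates came from separate infections, so p values measure the spread between these libraries.

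In the integrated stress response, kinases that sense amino acid shortage, ER stress, haem shortage or viral RNA phosphorylate eIF2α, which lowers translation in general and raises translation of ATF4. ATF4 then induces genes for amino acid synthesis and import, tRNA charging, mitochondrial one-carbon metabolism and feedback inhibitors of the pathway. The unfolded protein response has 3 sensors in the ER membrane: PERK (EIF2AK3), which feeds into ATF4, IRE1 (ERN1), which splices XBP1 mRNA, and ATF6, and the latter branches chiefly induce chaperones and ER-associated degradation. ccRCC is known for altered amino acid and lipid metabolism.

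Library totals ran from 33793045 to 35444735 reads. ARNT had a normalised read count of 2352 ± 184 (SD, n = 3) in shControl, 1225 ± 23.2 with shARNT and 2014 ± 76.2 with shBMAL1. ARNTL had 761 ± 32.0, 633 ± 57.8 and 326 ± 29.2, so each targeted transcript was lowest in its own knockdown, and each was also lower than control in the other. All 7 renal markers checked (PAX8, PAX2, CA12, KRT8, KRT18, VIM and NNMT) were at a mean of 10 or more reads. The same held for 3 of 5 fibroblast, 2 of 6 leukocyte and 0 of 4 endothelial markers, with CDH5 and CD3E at 0 in every library. The summed level of 5 fibroblast markers was 213 to 283 in shControl, 199 to 220.2 in shARNT and 360.4 to 396 in shBMAL1. The sum of the renal markers was 184768 ± 1913, 163476 ± 2615 and 162504 ± 8973 in the same order, lower in both knockdowns with no overlap. Gene by gene they went both ways in DESeq2 at an adjusted p under 0.1. In shARNT 2 were lower and 2 higher, and in shBMAL1 4 were lower and 2 higher, where 35.4% and 36.8% of all genes were called. The sum of the leukocyte markers was 7417 ± 429, 7019 ± 316 and 6008 ± 707, nearly all of it from the lysosomal CD68, lower in shBMAL1 with no overlap with shControl. Mitochondrial genes took 6.21% ± 0.854 of reads in control libraries, 8.06% ± 0.604 with shARNT and 9.33% ± 0.538 in shBMAL1 (exact permutation p = 0.1 for each knockdown, the smallest that 3 against 3 libraries allow). The part of any of these in the results below was not tested.

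Short promoter windows of the members were searched for exact matches to known response elements. RefSeq promoter windows, which run from 250 bases before to 50 bases after a transcription start, were at hand for 29 members. They were searched on both strands for the C/EBP-ATF response element (CARE, TGATGNAA), through which ATF4 acts. It was found in 5 of these members, ASNS, CHAC1, CEBPG, ATF3 and HERPUD1, and in 4.46% of all genes with a window. The matches are shown because 4 of these 5 genes are ATF4 targets whose levels are described below. The window sequences come from RefSeq (GRCh38.p14), are written along the strand of the gene with the CARE in capitals, and were placed on GRCh37 by an exact match that was unique on its chromosome.
ASNS: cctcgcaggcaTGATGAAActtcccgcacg
CHAC1: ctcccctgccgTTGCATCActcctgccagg
CEBPG: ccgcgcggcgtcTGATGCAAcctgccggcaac
ATF3: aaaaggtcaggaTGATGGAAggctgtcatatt

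ASNS lies on the minus strand, and its stretch is chr7:97501770-97501799, from base −79 to −50 relative to the RefSeq start and inside the first exon of other annotated ASNS transcripts. The CHAC1 stretch is chr15:41245449-41245478 on the plus strand, bases −220 to −191, and also overlaps an annotated CHAC1 exon. In CHAC1 the element runs in the opposite orientation. The CEBPG stretch, chr19:33864965-33864996 on the plus strand, spans bases −54 to −23 and lies in an intron of a longer CEBPG transcript. The ATF3 stretch, chr1:212738546-212738577 on the plus strand, spans bases −203 to −172 before any annotated transcript. No CARE was found in the windows of the 9 ER chaperones.

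The ER stress response element (ERSE, CCAAT followed after 9 bases by CCACG) and the related ERSE-II (ATTGG followed after 1 base by CCACG) bind ATF6 and XBP1 with the factor NF-Y. ERSE was found in HSPA5, HSP90B1, XBP1 and CRELD2, and in 0.0916% of all genes with a window. ERSE-II was found in HYOU1, SDF2L1 and HERPUD1, and in 0.0696% of all genes. Of 9 chaperones, 5 had one of these elements, and of 12 ATF4 targets with a window, 0 did. The stretches below show them in capitals, since among these windows they were found in chaperones, XBP1 and HERPUD1, and in no ATF4 target. HSP90B1 has 2 ERSE copies and is given as 2 stretches, and HYOU1 has 2 ERSE-II copies in 1 stretch.
HSPA5: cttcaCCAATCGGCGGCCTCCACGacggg
HSP90B1: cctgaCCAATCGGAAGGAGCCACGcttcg
HSP90B1: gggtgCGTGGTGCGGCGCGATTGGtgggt
CRELD2: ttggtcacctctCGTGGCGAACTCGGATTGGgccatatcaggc
XBP1: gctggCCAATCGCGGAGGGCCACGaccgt
HYOU1: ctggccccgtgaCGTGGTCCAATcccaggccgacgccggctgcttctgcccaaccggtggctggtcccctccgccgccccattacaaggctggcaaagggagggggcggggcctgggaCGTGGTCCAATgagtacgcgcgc
SDF2L1: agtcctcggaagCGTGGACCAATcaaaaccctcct

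On GRCh37 these are chr9:128003665-128003693 for HSPA5 (minus strand), chr12:104323989-104324017 and chr12:104324094-104324122 for HSP90B1 (plus strand), chr22:50312190-50312232 for CRELD2 (plus strand), chr22:29196586-29196614 for XBP1 (minus strand), chr11:118927973-118928113 for HYOU1 (minus strand) and chr22:21996391-21996425 for SDF2L1 (plus strand). The HSP90B1 stretches overlap annotated exons of longer HSP90B1 transcripts, the CRELD2 stretch lies in an intron of a longer CRELD2 transcript, and the other 4 lie before all annotated transcripts.

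HERPUD1, a degradation factor of the ER membrane, carried a CARE, an E-box and an ERSE-II within 94 bases. The E-box (CACGTG) is the element bound by BMAL1 with CLOCK, and it was also found in ATF4, DNAJB9 and HSP90B1 and in 8.77% of all genes with a window. The stretches of HERPUD1, ATF4 and DNAJB9 are shown because ATF4 heads the pathway and these E-boxes lie nearer the start than that of HSP90B1. The E-box of HSP90B1 spans bases −248 to −243, and that of HERPUD1 bases −159 to −154.
HERPUD1: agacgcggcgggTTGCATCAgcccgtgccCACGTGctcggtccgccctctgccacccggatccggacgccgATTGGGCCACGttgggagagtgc
ATF4: ggaggagacggtCACGTGgtcgcggcggaa
DNAJB9: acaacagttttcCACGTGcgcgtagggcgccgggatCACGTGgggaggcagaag

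Here the capitals mark the CARE (in the opposite orientation), the E-box and the ERSE-II of HERPUD1 in that order, the E-box of ATF4, and 2 E-boxes of DNAJB9. These stretches are chr16:56965866-56965959, chr22:39916470-39916499 and chr7:108210233-108210286, all on the plus strand, and the one of ATF4 lies in an annotated exon of longer ATF4 transcripts. The core of the hypoxia response element, to which HIF2α binds with ARNT, is common: ACGTG, which the E-box contains, was in windows of 10 of 29 members and in 24.9% of all genes, and GCGTG was in 19 of 29 members and in 40.6% of all genes. A match is a run of letters and no measure of binding. An element outside the window, or with other letters, would be missed, so a member without a match may still carry one.

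**Figure D1:**
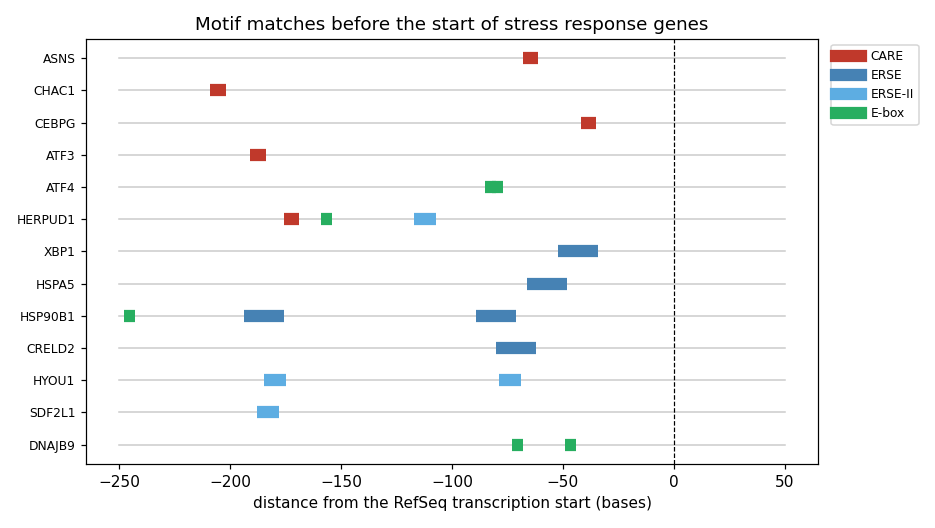
Motif matches in the RefSeq windows of the 13 members that hold a CARE, an ERSE, an ERSE-II or an E-box, by distance in bases from the transcription start (dashed line at 0); grey lines span the window, and ATF4 is drawn for 2 starts that lie close together. CARE matches (red) sit in ATF4 targets and HERPUD1, and ERSE and ERSE-II matches (blue) in chaperones, XBP1 and HERPUD1.

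Of the 33 members tested, 25 changed in shARNT, 21 lower and 4 higher than shControl, at an adjusted p under 0.1 in DESeq2. Over all genes tested in that comparison, 35.4% were called, 19.0% lower and 16.5% higher. In shBMAL1 18 members changed, 13 lower and 5 higher, where 36.8% of all genes were called, 19.4% lower and 17.4% higher. Of all genes tested, 43.9% in shARNT and 45.2% in shBMAL1 had no overlap with the shControl libraries. These shares are the background wherever a gene is said below not to overlap control. The median log2 fold change of the members was −0.35 in shARNT and −0.17 in shBMAL1, and that of all genes tested was 0.00285 and 0.0153. The members thus leaned lower in shARNT, and less so in shBMAL1. The 4 members higher in shARNT were 2 without shControl replicate 1. The 5 higher in shBMAL1 were 2 without shControl replicate 1 and 3 without shControl replicate 3, shBMAL1 replicate 1 or shBMAL1 replicate 2.

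Set directly against shARNT, shBMAL1 had 17 members higher and 6 lower, against 17.3% higher and 18.0% lower of all genes, 35.3% in either direction. The median of the members was 0.17 and that of all genes 0.00944. The share of all genes with each joint pattern was not counted, so the patterns that follow only sort the members. The study reported a large overlap between the genes lowered by both shRNAs. By pattern, 7 members were lower in shARNT, not called in shBMAL1, and higher in shBMAL1 in the direct comparison: ASNS, PSAT1, PSPH, MTHFD2, ALDH1L2, CHAC1 and HSPA5. Another 10 were lower in both knockdowns: ATF4, ATF3, TRIB3, SHMT2, MANF, PPP1R15A, EDEM1, HYOU1, EIF4EBP1 and XBP1. HERPUD1 was higher in both. NUPR1, HSP90B1 and PDIA4 were lower in shARNT and higher in shBMAL1, and CEBPB was the reverse. DDIT3 and ERN1 were called by DESeq2 in no comparison, and edgeR's quasi-likelihood test called both lower in shARNT.

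**Figure D2:**
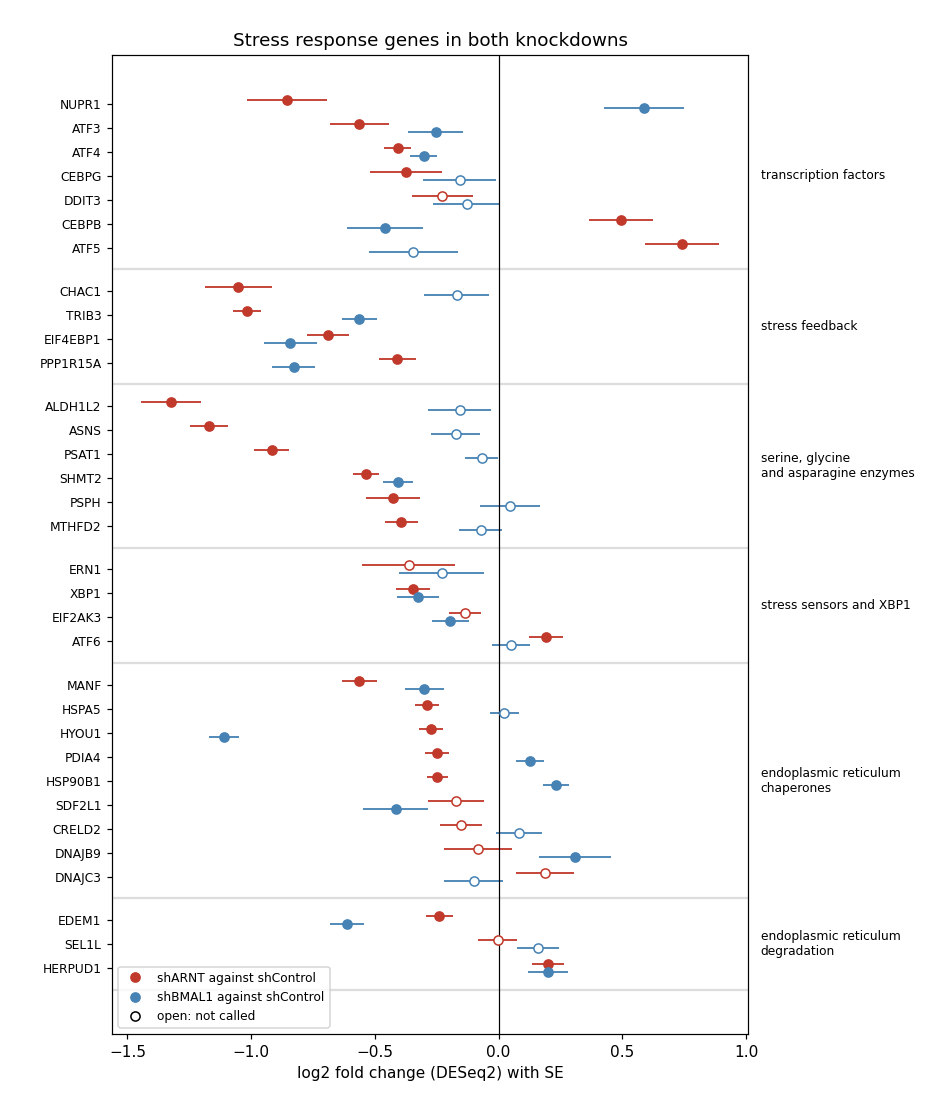
Log2 fold change against shControl, with its SE, of the 33 members tested in shARNT (red) and shBMAL1 (blue), grouped by role; filled points are called at an adjusted p under 0.1 and open points are not. The 6 enzymes of serine, glycine, asparagine and one-carbon metabolism all lie below 0 in shARNT, while 1 of them, SHMT2, is called in shBMAL1.

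ATF4 mRNA fell in both knockdowns. ATF4, at chr22:39915700-39918688, plus strand on GRCh37, had 19230.5, 18465 and 18997 in the shControl libraries, 15079.7, 13199 and 14336 in the shARNT libraries and 15048, 15551 and 15403 in the shBMAL1 libraries as normalised read counts. All 6 knockdown libraries lay below the 3 controls, and the knockdowns overlapped each other. The log2 fold change was −0.41 (SE 0.0547, adjusted p = 2.4e-12) in shARNT, a level that fell by 24.7%, and −0.30 (SE 0.0558, adjusted p = 6.14e-07) in shBMAL1, where it fell by 19.0%. The knockdowns differed by 0.11 (SE 0.0648, adjusted p = 0.212), with a 95% interval of −0.02 to 0.24, which was not called. Per kilobase of its canonical transcript ATF4 stood highest of the members in shControl, at 13318 ± 276 normalised reads, ahead of HSP90B1 at 11238 ± 24.1 and HSPA5 at 7845 ± 243. In shBMAL1 HSP90B1 stood above ATF4, 13218 ± 196 against 10806 ± 182. ATF4 is controlled chiefly at translation, which these counts do not measure, and it has processed pseudogenes that could share reads. As bulk RNA, none of these values tells fewer expressing cells from less RNA per cell.

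The enzymes for asparagine, serine and mitochondrial one-carbon metabolism fell in shARNT. All 6 that were tested were lower in shARNT, with a median log2 fold change of −0.73, and 1 of 6 was lower in shBMAL1, with a median of −0.12, where 19.0% and 19.4% of all genes were lower. ASNS, which makes asparagine from aspartate, had 6363, 7425 and 6410.2 in the shControl libraries, 2694, 2953 and 3307 in the shARNT libraries and 4925, 6393 and 6614 in the shBMAL1 libraries. The shARNT libraries lay far below the others, and shBMAL1 overlapped the controls. Its log2 fold change was −1.17 (SE 0.0773, adjusted p = 2.48e-49) in shARNT, a level that fell by 55.6%, and −0.17 (SE 0.0991, adjusted p = 0.185) in shBMAL1. The direct difference was 1.00 (SE 0.103, adjusted p = 1.36e-20). PSAT1, the transaminase of serine synthesis, had 5938, 6373 and 6151 in the shControl libraries, 2958, 3168 and 3631 in the shARNT libraries and 5541, 6106 and 5985 in the shBMAL1 libraries. Again the shARNT group stood alone below, with a log2 change of −0.92 (SE 0.0703, adjusted p = 1.22e-36), while shBMAL1 gave −0.07 (SE 0.0665, adjusted p = 0.494) with a 95% interval of −0.20 to 0.06. ALDH1L2, a mitochondrial formyltetrahydrofolate dehydrogenase, had 565, 588 and 596 in the shControl libraries, 239, 250.4 and 208 in the shARNT libraries and 420.0, 574 and 576 in the shBMAL1 libraries. It fell by 60.1% in shARNT, at −1.32 (SE 0.120, adjusted p = 2.34e-26), the largest change of any member there. ALDH1L2 shares exon positions with KIAA1033 (WASHC4) and C12orf45 on the opposite strand, which had 5240.1 ± 222 and 165 ± 28.8 normalised reads in shControl and log2 fold changes of −0.14 (adjusted p = 0.0611) and −0.11 (adjusted p = 0.727) in shARNT.

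MTHFD2, the mitochondrial methylene-tetrahydrofolate dehydrogenase, fell to 5235 ± 528 from 6896 ± 111 in shARNT, at −0.39 (SE 0.0666, adjusted p = 5.29e-08). PSPH, the phosphatase that ends serine synthesis, had −0.43 (SE 0.109, adjusted p = 0.000598) in shARNT and 0.05 (SE 0.122, adjusted p = 0.833) in shBMAL1. SHMT2, which passes a one-carbon unit from serine to folate in mitochondria, was the only one of the 6 that also fell in shBMAL1, at −0.41 (SE 0.0598, adjusted p = 2.11e-10) beside −0.54 (SE 0.0527, adjusted p = 1.36e-22) in shARNT. Its direct difference of 0.14 (SE 0.0615, adjusted p = 0.0834) was not called in 4 of the 6 fits that left out 1 library (shARNT replicates 1 and 2, shBMAL1 replicates 1 and 3), and without shARNT replicate 1 it gave a log2 fold change 0.10, adjusted p = 0.326. SHMT2 shares exon positions with NDUFA4L2 on the opposite strand, but NDUFA4L2 had 22.1 ± 5.35 normalised reads in shControl against 16267 ± 618 for SHMT2. ASNS, PSAT1, PSPH and MTHFD2 have pseudogene copies, so some of their reads could have been placed at those.

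Replicate 1 had the lowest value of its 3 libraries in 5 of the 6 enzymes in shBMAL1, and in 4 of 6 in each of shControl and shARNT. Over the 16 ATF4 targets it was lowest in 8, 7 and 5. Without shBMAL1 replicate 1 ASNS in shBMAL1 lay nearer to control (log2 fold change −0.05, adjusted p = 0.672), while leaving out shBMAL1 replicate 3 brought its change in shBMAL1 past the threshold (log2 fold change −0.25, adjusted p = 0.0529). MTHFD2 in shBMAL1, again without shBMAL1 replicate 1, stood at a log2 fold change 0.03, adjusted p = 0.72. Each of the 6 kept its call in shARNT whichever library was left out.

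Of 4 genes that feed back on the pathway, all 4 were lower in shARNT and 3 in shBMAL1, against 19.0% and 19.4% of all genes. TRIB3, a pseudokinase that restrains ATF4, had 8257, 8189 and 7856 in the shControl libraries, 3999.9, 4197 and 3787 in the shARNT libraries and 5954, 5392 and 5118 in the shBMAL1 libraries. The 3 groups did not overlap, with shBMAL1 between shARNT and control. It fell by 50.6% in shARNT, at −1.02 (SE 0.0554, adjusted p = 2.31e-72), and by 32.3% in shBMAL1, at −0.56 (SE 0.0705, adjusted p = 3.27e-14). The knockdowns differed by 0.46 (SE 0.0746, adjusted p = 1.55e-08). CHAC1, which breaks down glutathione, had 535, 412 and 488 in the shControl libraries, 226, 221 and 244 in the shARNT libraries and 434, 385 and 458 in the shBMAL1 libraries. Here the shARNT libraries alone lay below the controls, at −1.05 (SE 0.135, adjusted p = 1.82e-13), while shBMAL1 gave −0.17 (SE 0.130, adjusted p = 0.358) with a 95% interval of −0.43 to 0.08.

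EIF4EBP1 and PPP1R15A fell further in shBMAL1 than most members did. EIF4EBP1, the 4E-BP1 repressor of cap-dependent translation on chromosome 8, had 1078, 1051 and 1118 in the shControl libraries, 665, 699 and 642 in the shARNT libraries and 623, 516 and 675 in the shBMAL1 libraries. Both knockdowns lay below control, and they overlapped each other. The log2 fold change was −0.69 (SE 0.0847, adjusted p = 1.17e-14) in shARNT and −0.84 (SE 0.107, adjusted p = 9.55e-14) in shBMAL1, and the direct difference of −0.15 (SE 0.115, adjusted p = 0.376) was not called. PPP1R15A (GADD34), the phosphatase subunit that removes the phosphate from eIF2α, had 1836, 1866 and 1901 in the shControl libraries, 1533, 1296 and 1382 in the shARNT libraries and 1058, 963 and 1136 in the shBMAL1 libraries. Control, shARNT and shBMAL1 followed each other downward with no overlap, at −0.41 (SE 0.0753, adjusted p = 7.57e-07) and −0.83 (SE 0.0849, adjusted p = 7.27e-21). The direct difference was −0.42 (SE 0.0950, adjusted p = 9.92e-05). PPP1R15A therefore differed between the knockdowns in the opposite direction from TRIB3 and CHAC1.

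Of 7 transcription factors, ATF4 among them, 4 were lower and 2 higher in shARNT, and 3 were lower and 1 higher in shBMAL1. Of all genes, 19.0% were lower and 16.5% higher in shARNT, and 19.4% and 17.4% in shBMAL1. Called or not, 5 of the 7 factors lay below 0 in shARNT and 6 in shBMAL1. NUPR1, a small stress-induced chromatin protein, had 282, 254 and 311 in the shControl libraries, 159, 137 and 171 in the shARNT libraries and 357, 378 and 539 in the shBMAL1 libraries. The shARNT libraries were all below the controls and the shBMAL1 libraries all above. Its log2 fold change was −0.86 (SE 0.160, adjusted p = 1.26e-06) in shARNT and 0.59 (SE 0.162, adjusted p = 0.00154) in shBMAL1, and the direct difference of 1.45 (SE 0.174, adjusted p = 3.16e-15) was the largest of any member. Without shBMAL1 replicate 3, the highest library, the rise in shBMAL1 was smaller (log2 fold change 0.38, adjusted p = 0.0642). CEBPB, a C/EBP factor that pairs with ATF4, had 480.0, 383 and 588 in the shControl libraries, 709, 699 and 630.1 in the shARNT libraries and 322, 339.6 and 395 in the shBMAL1 libraries. It was higher in shARNT, at 0.49 (SE 0.131, adjusted p = 0.00104), and lower in shBMAL1, at −0.46 (SE 0.152, adjusted p = 0.0106), where 1 control library lay within the shBMAL1 range. The fall in shBMAL1 was lost without shControl replicate 3 (log2 fold change −0.30, adjusted p = 0.18). CEBPB counts were fractional in all 9 libraries, and its antisense transcript CEBPB-AS1 overlaps it, at 46.2 ± 15.4 normalised reads in shControl.

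ATF5, an ATF4 relative linked to mitochondrial stress, had 186, 175 and 238 in the shControl libraries, 347, 321 and 330.0 in the shARNT libraries and 155, 150.2 and 166 in the shBMAL1 libraries. It rose by 67.1% in shARNT, at 0.74 (SE 0.150, adjusted p = 8.81e-06), the largest rise of any member there. In shBMAL1 it lay below all 3 controls at −0.35 (SE 0.180, adjusted p = 0.138), which was not called. It was called by edgeR's quasi-likelihood test (log2 fold change −0.34, adjusted p = 0.0673), with at least 10 counts in 3 libraries (log2 fold change −0.34, adjusted p = 0.0997) and with all 9 libraries in 1 fit (log2 fold change −0.34, adjusted p = 0.0735), and without shControl replicate 3 it stood at a log2 fold change −0.20, adjusted p = 0.539. ATF5 shares exon positions with NUP62 and IL4I1 on the opposite strand. NUP62 was more abundant, at 3723 ± 89.8 normalised reads in shControl, and gave log2 fold changes of −0.05 (adjusted p = 0.643) in shARNT and −0.04 (adjusted p = 0.787) in shBMAL1. IL4I1, at 1299 ± 104, gave −0.19 (adjusted p = 0.0976) and −0.40 (adjusted p = 0.000302). Whether the counting used strand is not known, so reads of these genes cannot be told apart.

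Among the other factors, ATF3, an early stress-induced repressor, had 575 ± 16.9 normalised reads in control cells, 389 ± 55.4 with shARNT and 483 ± 42.1 with shBMAL1. It was lower in shARNT at −0.56 (SE 0.118, adjusted p = 2e-05). The smaller fall in shBMAL1, −0.25 (SE 0.112, adjusted p = 0.0671), was lost in 5 of the 6 fits that left out 1 library, all but that without shBMAL1 replicate 2, with adjusted p up to 0.234 without shBMAL1 replicate 3. CEBPG, a C/EBP factor that forms dimers with ATF4, gave −0.37 (SE 0.145, adjusted p = 0.0376) in shARNT, a call lost in 3 of 6 such fits (shControl replicate 1, shARNT replicates 1 and 2), with a log2 fold change −0.27, adjusted p = 0.274 without shControl replicate 1. DDIT3 (CHOP), which promotes cell death in lasting stress, had −0.23 (SE 0.122, adjusted p = 0.157) in shARNT and −0.13 (SE 0.135, adjusted p = 0.53) in shBMAL1. Neither change was called by DESeq2, and the 95% intervals were −0.47 to 0.01 and −0.39 to 0.14. In shARNT it passed in edgeR's quasi-likelihood test (log2 fold change −0.23, adjusted p = 0.094) and without shControl replicate 1 (log2 fold change −0.31, adjusted p = 0.0963). DDIT3 overlaps exons of MARS on the opposite strand, which had 15813 ± 363 normalised reads in shControl and was lower in both knockdowns, at −0.42 (adjusted p = 2.31e-16) and −0.26 (adjusted p = 0.000118), and of MBD6, at −0.11 (adjusted p = 0.224) and −0.01 (adjusted p = 0.94). As the use of strand in counting is not known, reads of DDIT3 and of these genes cannot be told apart.

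**Figure D3:**
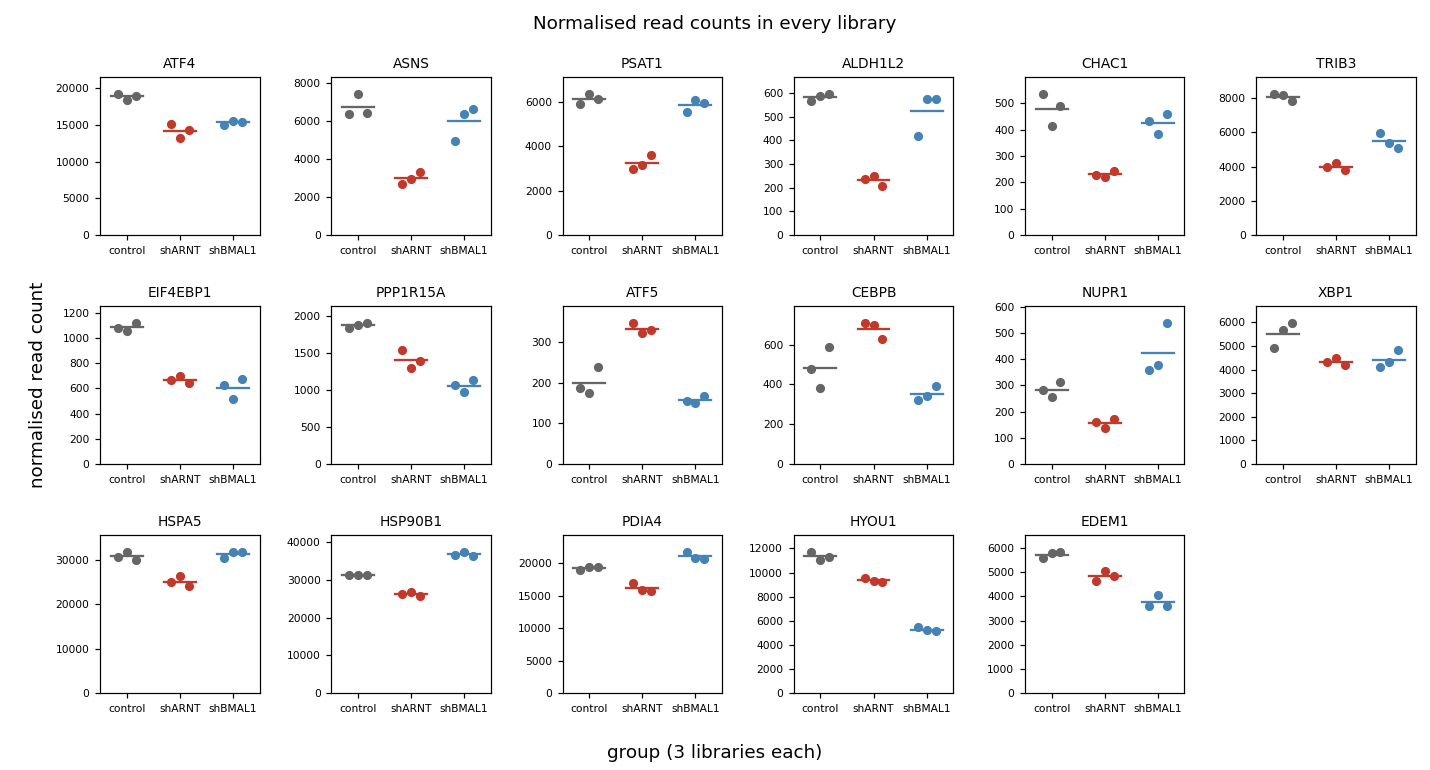
Normalised read counts of 17 members in each of the 9 libraries (points) with the group mean (line), on axes that start at 0; grey is shControl, red shARNT and blue shBMAL1. ASNS, PSAT1, ALDH1L2 and CHAC1 are low in the 3 shARNT libraries only, HYOU1 is lowest in shBMAL1, and NUPR1, HSP90B1 and PDIA4 move to opposite sides of control.

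Among the ER stress sensors and XBP1, 1 of 4 genes was lower and 1 higher in shARNT, and 2 were lower in shBMAL1, where 35.4% and 36.8% of all genes were called. XBP1, whose spliced mRNA encodes a factor for chaperones and degradation genes, had 4908, 5664 and 5973 in the shControl libraries, 4321, 4495 and 4172 in the shARNT libraries and 4091, 4309 and 4809 in the shBMAL1 libraries. All 6 knockdown libraries lay below the controls, and the knockdowns overlapped. XBP1 shared this separation from control, in either direction, with 43.9% of all genes in shARNT and 45.2% in shBMAL1. The log2 fold change was −0.35 (SE 0.0695, adjusted p = 7.46e-06) in shARNT and −0.33 (SE 0.0854, adjusted p = 0.000773) in shBMAL1, with a direct difference of 0.02 (SE 0.0753, adjusted p = 0.87) and a 95% interval of −0.12 to 0.17. Gene counts do not tell spliced from unspliced XBP1. EIF2AK3 (PERK) gave −0.14 (SE 0.0655, adjusted p = 0.106) in shARNT and −0.20 (SE 0.0743, adjusted p = 0.0291) in shBMAL1. In shARNT it was called by edgeR's quasi-likelihood test (log2 fold change −0.14, adjusted p = 0.0836) and with TMM size factors in DESeq2 (log2 fold change −0.15, adjusted p = 0.081). The call in shBMAL1 was lost without shControl replicate 2 (log2 fold change −0.19, adjusted p = 0.111), and the EIF2AK3 counts were fractional in all 9 libraries. ATF6 was higher in shARNT at 0.19 (SE 0.0673, adjusted p = 0.0192), which was lost without shControl replicate 1 (log2 fold change 0.15, adjusted p = 0.165) and without shARNT replicate 2 (log2 fold change 0.17, adjusted p = 0.109). ERN1 (IRE1), at 263 ± 57.5 normalised reads in shControl, was called by DESeq2 in neither knockdown, at −0.36 (SE 0.187, adjusted p = 0.134) and −0.23 (SE 0.172, adjusted p = 0.344), but edgeR's quasi-likelihood test called it in shARNT (log2 fold change −0.37, adjusted p = 0.0821). Leaving out shControl replicate 3 brought ERN1 past the threshold in shARNT (log2 fold change −0.52, adjusted p = 0.0352) and in shBMAL1 (log2 fold change −0.39, adjusted p = 0.0973), as did leaving out shARNT replicate 2 in shARNT (log2 fold change −0.51, adjusted p = 0.0653).

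Of 9 ER chaperones, 5 were lower and 0 higher in shARNT, with a median log2 fold change of −0.25, and 3 were lower and 3 higher in shBMAL1, with a median of 0.02. Over all genes 19.0% were lower and 16.5% higher in shARNT, and 19.4% and 17.4% in shBMAL1. The 3 that were higher came to 1, HSP90B1, when any shControl library or shBMAL1 replicate 2 was left out. HSPA5 (BiP), the Hsp70 chaperone of the ER that also holds the sensors inactive, had 30662, 31758 and 29859 in the shControl libraries, 24899.6, 26256 and 24118 in the shARNT libraries and 30483, 31771 and 31659 in the shBMAL1 libraries. The shARNT libraries lay below the others, and shBMAL1 overlapped control. It fell by 18.2% in shARNT, at −0.29 (SE 0.0493, adjusted p = 6.26e-08), and gave 0.02 (SE 0.0571, adjusted p = 0.816) in shBMAL1, with a 95% interval of −0.09 to 0.14. HSP90B1 (GRP94), the Hsp90 of the ER, had 31342, 31231 and 31222 in the shControl libraries, 26251, 26773 and 25820.0 in the shARNT libraries and 36666, 37363 and 36286 in the shBMAL1 libraries. The 3 groups did not overlap, and shBMAL1 was the highest. Its log2 fold change was −0.25 (SE 0.0421, adjusted p = 6.84e-08) in shARNT and 0.23 (SE 0.0532, adjusted p = 9.61e-05) in shBMAL1.

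PDIA4, a protein disulfide isomerase, had 19021, 19458 and 19382 in the shControl libraries, 17010.0, 15848 and 15723 in the shARNT libraries and 21726, 20789.9 and 20696 in the shBMAL1 libraries. Its 3 groups were ordered like those of HSP90B1, at −0.25 (SE 0.0481, adjusted p = 2.79e-06) in shARNT and 0.13 (SE 0.0559, adjusted p = 0.0719) in shBMAL1. The rise in shBMAL1 did not pass in 5 of the 6 fits that left out 1 library, all but that without shBMAL1 replicate 3, and gave a log2 fold change 0.11, adjusted p = 0.243 without shControl replicate 1, nor did it pass in edgeR's quasi-likelihood test (log2 fold change 0.13, adjusted p = 0.103). HYOU1 (GRP170), an Hsp110-like chaperone that recharges HSPA5, had 11708, 11043 and 11271 in the shControl libraries, 9574, 9316 and 9179.8 in the shARNT libraries and 5461, 5208 and 5118 in the shBMAL1 libraries. All 3 groups stood apart, with shBMAL1 far the lowest, where it fell by 53.7%. The log2 fold change was −1.11 (SE 0.0614, adjusted p = 1.66e-70) in shBMAL1, the largest of any member there, −0.27 (SE 0.0482, adjusted p = 1.91e-07) in shARNT, and −0.83 (SE 0.0603, adjusted p = 5.87e-41) in the direct comparison. HYOU1 and HSP90B1, which both carry 2 copies of an ER stress element in the stretches above, thus moved to opposite sides of control in shBMAL1.

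MANF, a secreted factor that protects cells from ER stress, was lower in both knockdowns, at −0.56 (SE 0.0701, adjusted p = 3.37e-14) in shARNT and −0.30 (SE 0.0800, adjusted p = 0.00101) in shBMAL1. SDF2L1, which works with HSPA5 and DNAJ proteins, was lower in shBMAL1 at −0.42 (SE 0.131, adjusted p = 0.00679), and had −0.17 (SE 0.112, adjusted p = 0.261) in shARNT. The direct difference of −0.24 (SE 0.131, adjusted p = 0.169) passed without shBMAL1 replicate 2 (log2 fold change −0.33, adjusted p = 0.091). DNAJB9 (ERdj4), a cochaperone of HSPA5, passed in shBMAL1 at 0.31 (SE 0.146, adjusted p = 0.096), but in 5 of 6 fits without 1 library, all but that without shBMAL1 replicate 1, it did not, with a log2 fold change 0.23, adjusted p = 0.356 without shBMAL1 replicate 3, nor with TMM size factors (log2 fold change 0.31, adjusted p = 0.102). CRELD2, a disulfide isomerase, was called in neither knockdown, at −0.15 (SE 0.0850, adjusted p = 0.173) and 0.08 (SE 0.0927, adjusted p = 0.565). The same held for DNAJC3 (p58IPK), a cochaperone that inhibits PERK, at 0.19 (SE 0.117, adjusted p = 0.239) and −0.10 (SE 0.119, adjusted p = 0.586). In the direct comparison CRELD2 was higher in shBMAL1 at 0.24 (SE 0.0908, adjusted p = 0.0311) and DNAJC3 lower at −0.29 (SE 0.119, adjusted p = 0.0542). DNAJC3 lost that call without shARNT replicate 3 (log2 fold change −0.18, adjusted p = 0.348) or shBMAL1 replicate 1 (log2 fold change −0.23, adjusted p = 0.194), and CRELD2 lost it without shARNT replicate 2 or 3 or shBMAL1 replicate 3, at adjusted p up to 0.153 without shBMAL1 replicate 3. CRELD2 counts were fractional in 8 of 9 libraries, and CRELD2 overlaps exons of ALG12 on the opposite strand. ALG12 had 1396 ± 73.6 normalised reads in shControl and log2 fold changes of 0.04 (adjusted p = 0.764) in shARNT, 0.23 (adjusted p = 0.0242) in shBMAL1 and 0.19 (adjusted p = 0.0804) in the direct comparison, and reads of these genes likewise cannot be told apart.

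Of 3 degradation factors, 1 was lower and 1 higher in each knockdown, where 35.4% of all genes were called in shARNT and 36.8% in shBMAL1. EDEM1, a lectin that hands misfolded glycoproteins to degradation, had 5567, 5776 and 5837 in the shControl libraries, 4649.8, 5044 and 4823 in the shARNT libraries and 3593, 4038 and 3619 in the shBMAL1 libraries. The 3 groups did not overlap and shBMAL1 was lowest, at −0.61 (SE 0.0694, adjusted p = 3.78e-17) beside −0.24 (SE 0.0541, adjusted p = 8.32e-05) in shARNT. The direct difference was −0.37 (SE 0.0717, adjusted p = 3.16e-06). HERPUD1 was higher in both knockdowns, 0.20 (SE 0.0638, adjusted p = 0.00868) in shARNT and 0.20 (SE 0.0805, adjusted p = 0.0417) in shBMAL1. Both rises were lost without shControl replicate 1 (in shARNT log2 fold change 0.15, adjusted p = 0.111, and in shBMAL1 log2 fold change 0.15, adjusted p = 0.239), and that in shBMAL1 also without shBMAL1 replicate 1 (log2 fold change 0.14, adjusted p = 0.175). SEL1L, the adaptor of the HRD1 ubiquitin ligase, was called by DESeq2 in neither knockdown, at −0.00 (SE 0.0778, adjusted p = 0.98) and 0.16 (SE 0.0853, adjusted p = 0.152). In shBMAL1 edgeR's quasi-likelihood test (log2 fold change 0.16, adjusted p = 0.096) and the fit of all 9 libraries (log2 fold change 0.16, adjusted p = 0.0998) called it, and leaving out shControl replicate 2 brought it past the threshold in shBMAL1 (log2 fold change 0.24, adjusted p = 0.0354). Its direct difference, 0.17 (SE 0.0704, adjusted p = 0.0567), was lost in 4 of 6 fits without 1 library (shARNT replicates 1 and 3, shBMAL1 replicates 1 and 2), at adjusted p up to 0.238.

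Put side by side, the 17 ATF4 targets and the 9 chaperones differed more in size than in direction in shARNT. Of 16 ATF4 targets tested, 13 were lower and 2 higher in shARNT, with a median log2 fold change of −0.55, against −0.25 for the chaperones. In shBMAL1 6 targets were lower and 1 higher, with a median of −0.17 against 0.02. The share of ATF4 targets called in either direction was 93.8% in shARNT, against 35.4% of all genes, and 43.8% in shBMAL1, near the 36.8% of all genes. By direction, 6 of 16 targets were lower in shBMAL1, where 19.4% of all genes were lower, and 14 of 16 lay below 0. Summed over genes, ATF4 targets had 51396 ± 1145 normalised reads in control cells, 32061 ± 1644 with shARNT and 41876 ± 1919.8 with shBMAL1. No library of one group overlapped another. The chaperones summed to 96911 ± 932, 80429 ± 1758 and 98256 ± 746, so that shBMAL1 and control lay close together and shARNT below. In shControl SHMT2 and TRIB3 gave the most reads to the first sum and HSP90B1 and HSPA5 to the second, and in shBMAL1 the higher HSP90B1 and the lower HYOU1 enter the second with opposite sign. The difference between the lists was not tested.

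**Figure D4:**
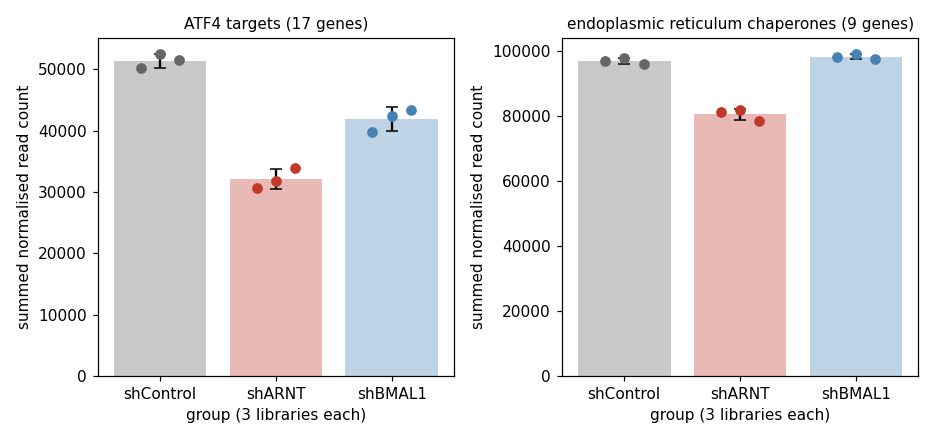
Summed normalised read counts of the 17 ATF4 targets (left) and the 9 ER chaperones (right) in each library (points), with the group mean (bar) and SD (error bar) over 3 libraries. The sum of the ATF4 targets is lowest in shARNT with shBMAL1 between it and control. In shBMAL1 6 of 16 tested targets are called lower, 1 higher and 9 not. The chaperone sum is lower in shARNT and near control in shBMAL1, where 3 chaperones are called lower and 3 higher.

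In the direct comparison 10 of 16 ATF4 targets were higher in shBMAL1 than in shARNT and 3 lower, with a median of 0.32, against 17.3% higher and 18.0% lower of all genes. The 3 lower ones were ATF5, CEBPB and PPP1R15A, and the ones that were higher included all 6 enzymes. Among chaperones 6 were higher and 2 lower, with a median of 0.27, and 1 was lower, HYOU1, without shARNT replicate 3 or shBMAL1 replicate 1. HSP90B1 differed by 0.48 (SE 0.0541, adjusted p = 1.72e-17), PDIA4 by 0.38 (SE 0.0597, adjusted p = 4.3e-09) and HSPA5 by 0.32 (SE 0.0592, adjusted p = 9.87e-07). For these 3 the libraries of the knockdowns did not overlap, as was true of 43.9% of all genes tested. ATF3, at 0.31 (SE 0.131, adjusted p = 0.0569), and DNAJB9, at 0.40 (SE 0.151, adjusted p = 0.0315), passed with less margin. ATF3 lost the call without shARNT replicate 1 or 2 or shBMAL1 replicate 2, at adjusted p up to 0.266, and DNAJB9 without shARNT replicate 1 or 3 or shBMAL1 replicate 2 or 3, at adjusted p up to 0.193.

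Other known ATF4 targets, listed from general knowledge of the pathway, leaned the same way. Of 21 tested, 16 were lower and 2 higher in shARNT, with a median log2 fold change of −0.60, where 19.0% and 16.5% of all genes were called. The largest falls in shARNT were in STC2, a secreted glycoprotein, at −1.43 (SE 0.0817, adjusted p = 5.88e-66), CTH, which makes cysteine, at −1.22 (SE 0.110, adjusted p = 1.67e-26), and PCK2, the mitochondrial PEP carboxykinase, at −1.20 (SE 0.0614, adjusted p = 1.38e-81). KLHL24, a ubiquitin ligase adaptor, and GDF15, a stress hormone, were higher, at 0.82 (SE 0.0828, adjusted p = 3.63e-21) and 0.61 (SE 0.0688, adjusted p = 3.48e-17). In shBMAL1 11 were lower and 2 higher, with a median of −0.25, against 19.4% and 17.4% of all genes. Here STC2, SLC6A9, a glycine transporter, and GPT2, a mitochondrial alanine transaminase, fell most, at −0.76 (SE 0.101, adjusted p = 1.12e-12), −0.61 (SE 0.112, adjusted p = 4.94e-07) and −0.51 (SE 0.0784, adjusted p = 1.8e-09). KLHL24 and VLDLR, a lipoprotein receptor, were higher, at 0.76 (SE 0.0953, adjusted p = 4.07e-14) and 0.24 (SE 0.0707, adjusted p = 0.00302). Set directly against shARNT, 14 were higher and 1 lower in shBMAL1, against 17.3% and 18.0% of all genes. SLC7A11, the cystine importer, had −0.83 (SE 0.0762, adjusted p = 1.91e-25) in shARNT and −0.36 (SE 0.0898, adjusted p = 0.000422) in shBMAL1, but was added here for its role, after its values were seen.

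The cytosolic aminoacyl-tRNA synthetases, which load amino acids onto tRNA and many of which ATF4 induces, were mostly lower. Of 13 tested, 11 were lower and 0 higher in shARNT, with a median log2 fold change of −0.39, and 8 were lower and 0 higher in shBMAL1, with a median of −0.22, against 19.0% and 19.4% lower of all genes. GARS, YARS and CARS fell most in shARNT, at −0.57 (SE 0.0535, adjusted p = 6.77e-25), −0.52 (SE 0.0571, adjusted p = 3.39e-18) and −0.50 (SE 0.0590, adjusted p = 1.82e-15). CARS is also in the list of other ATF4 targets. In shBMAL1 VARS, GARS and WARS fell most, at −0.67 (SE 0.0571, adjusted p = 2.82e-30), −0.42 (SE 0.0587, adjusted p = 1.91e-11) and −0.33 (SE 0.0681, adjusted p = 1.05e-05). LARS and NARS were the 2 not called in shARNT, at 0.03 (SE 0.0582, adjusted p = 0.764) and 0.07 (SE 0.0561, adjusted p = 0.401), and were named after their values were seen.

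Upstream of ATF4, of 12 eIF2 kinases, subunits of eIF2 and eIF2B, and related regulators, 3 were lower and 2 higher in shARNT, and 3 were lower and 0 higher in shBMAL1. The shares called, 41.7% and 25.0%, lay near and under the 35.4% and 36.8% of all genes. EIF2AK2 (PKR), the kinase for viral RNA, fell at −0.56 (SE 0.0719, adjusted p = 2.39e-13) in shARNT and −0.63 (SE 0.0918, adjusted p = 1.44e-10) in shBMAL1. EIF2AK4 (GCN2), the kinase for uncharged tRNA, fell at −0.25 (SE 0.0533, adjusted p = 2.77e-05) and −0.51 (SE 0.0630, adjusted p = 1.52e-14). OMA1, a mitochondrial protease that triggers the response, and EIF2B3 were higher in shARNT at 0.39 (SE 0.10, adjusted p = 0.000838) and 0.21 (SE 0.0904, adjusted p = 0.0707), and EIF2B3 was lower in shBMAL1 at −0.50 (SE 0.106, adjusted p = 2.46e-05). EIF2AK1 (HRI), the haem-regulated kinase, was lower in shARNT at −0.14 (SE 0.0613, adjusted p = 0.0707).

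Of 24 further folding and degradation genes, 8 were lower and 2 higher in shARNT, with a median of −0.04, and 8 were lower and 6 higher in shBMAL1, with a median of −0.08. The share called was 41.7% in shARNT, near the 35.4% of all genes, and 58.3% in shBMAL1, against 36.8%. ERO1A, an ER oxidase, HSPA13 and CALR (calreticulin) fell most in shARNT, at −0.66 (SE 0.0615, adjusted p = 6.24e-25), −0.45 (SE 0.0637, adjusted p = 6.3e-11) and −0.37 (SE 0.0598, adjusted p = 1.59e-08), and DNAJC10 and SSR1 rose, at 0.26 (SE 0.0565, adjusted p = 3.27e-05) and 0.15 (SE 0.0580, adjusted p = 0.0338). In shBMAL1 SEC24D, WFS1 and CREB3L2 fell most, at −0.56 (SE 0.0726, adjusted p = 4.21e-13), −0.51 (SE 0.0967, adjusted p = 1.46e-06) and −0.44 (SE 0.0722, adjusted p = 1.09e-08). DERL3, OS9 and PDIA3 rose most, at 0.85 (SE 0.206, adjusted p = 0.000257), 0.37 (SE 0.0664, adjusted p = 3.21e-07) and 0.36 (SE 0.0743, adjusted p = 1.26e-05). Like HSP90B1 and PDIA4, the ER proteins CALR, PDIA3 and PDIA6 were lower in shARNT and higher in shBMAL1, with CALR at 0.17 (SE 0.0778, adjusted p = 0.0739) and PDIA6 at −0.20 (SE 0.0610, adjusted p = 0.00501) and 0.25 (SE 0.0775, adjusted p = 0.00653). CALR, PDIA3 and PDIA6 were singled out together after their values were seen.

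Of 10 other one-carbon and glycine genes, 3 were lower and 2 higher in shARNT, and 3 were lower and 3 higher in shBMAL1. These were 5 and 6 of 10 genes in either direction, where 35.4% and 36.8% of all genes were called. MTHFD1L, the mitochondrial formate-producing enzyme, fell at −0.34 (SE 0.0566, adjusted p = 2.88e-08) and −0.17 (SE 0.0669, adjusted p = 0.0392), as SHMT2 did. The cytosolic counterparts SHMT1 and MTHFD1 were higher in both knockdowns, SHMT1 at 0.24 (SE 0.0613, adjusted p = 0.000817) and 0.33 (SE 0.0748, adjusted p = 6.75e-05), and MTHFD1 at 0.18 (SE 0.0606, adjusted p = 0.0122) and 0.18 (SE 0.0652, adjusted p = 0.0242). TYMS and SLC25A32 were the other 2 that fell in shARNT, at −0.16 (SE 0.0505, adjusted p = 0.00622) and −0.15 (SE 0.0584, adjusted p = 0.0448). In shBMAL1 SLC25A32 and SFXN1, which carry folate and serine into mitochondria, fell at −0.35 (SE 0.0773, adjusted p = 5.77e-05) and −0.25 (SE 0.0818, adjusted p = 0.00877).

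**Figure D5:**
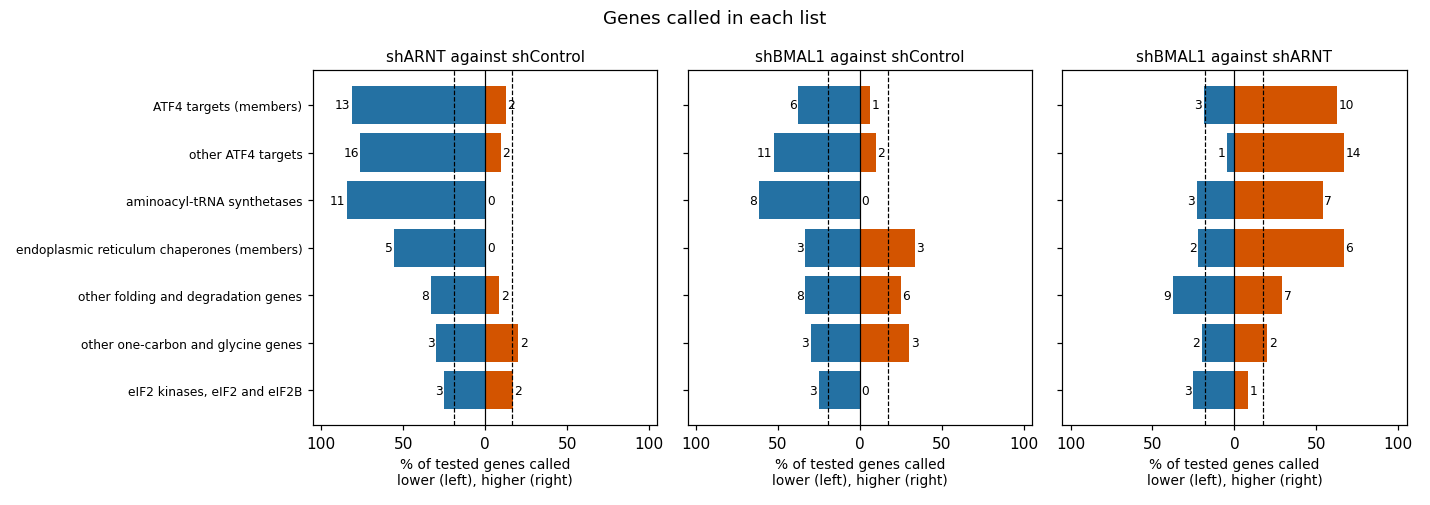
Share of tested genes called lower (blue, left) and higher (orange, right) in 7 lists in each of the 3 comparisons, with the number of genes beside each bar; dashed lines mark the share of all genes called in that direction. In shARNT the ATF4 targets, the other ATF4 targets and the tRNA synthetases reach furthest to the lower side, with 13, 16 and 11 genes.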

How the data were processed

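RNA-seq libraries of 786-O cells with a control, an ARNT or a BMAL1 shRNA were compared, 3 per group, with groups and replicate numbers from the labels. The deposited values were estimated counts, total reads per gene. The study's methods name SeqMan NGen with GRCh37 and ArrayStar, while the submitters' processing notes name STAR, DESeq2 and hg38, so the build behind the counts is uncertain. Coordinates here are 1-based on GRCh37, with GENCODE annotation and lengths of canonical transcripts. The annotation and strand setting of the counting were not given in the sources used here.

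In the 38074 rows a value of 0.009 stood for 0 (46.3% of values) and was set to 0. Of the others, 6.14% were fractional and were rounded. Rows of the same name (53) were added together, which left 38021 genes, and 28 rows whose symbol had become a date were kept unnamed. Library totals of 33793045 to 35444735 reads set the precision, and libraries of one group differed by more than sampling noise (chi-square per degree of freedom 7.60 to 17.6), so none was a second copy.

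Each comparison was fitted on all genes of its 6 libraries with DESeq2 version 1.42.0 (median-of-ratios size factors, Wald test, independent filtering, Benjamini-Hochberg adjustment, called at adjusted p under 0.1, as in the study), in R version 4.3.3. Intervals are 95% Wald intervals of the log2 fold change. The procedure was tested on simulated data. Alternatives were TMM size factors in DESeq2, a quasi-likelihood fit in edgeR 4.0.16 (TMM), at least 10 counts in 3 libraries, adjusted p under 0.05, a 1.5-fold minimum, all 9 libraries in one fit, a replicate block, and leaving out each library.

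The members and the other lists were chosen with earlier results of these data known, so no list was tested, and lists are described by counts and medians. Values in every library are given for ATF4, HSPA5, XBP1, the 5 members with the largest change among those called in each comparison, and members called in opposite directions. From each other list, up to 3 called genes with the largest rise and up to 3 with the largest fall in each knockdown are named, and any others are said to be added after their values were seen. Promoter windows of 29 of 34 members were matched by symbol, and 5 members had none. The value of 1 gene from these other lists is not reported here.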

Additional observations from a re-analysis of the deposited data

How the results depend on the processing

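Counts of genes called in the 3 comparisons (all genes, members, ATF4 targets and chaperones, each lower and higher) stayed within 1.5 times of those reported under edgeR's quasi-likelihood test, TMM size factors in DESeq2, the filter on low counts and the fit of all 9 libraries. With a minimum change of 1.5-fold, which by construction removes small changes, all genes fell to 711 lower and 489 higher in shARNT, 1070 and 1536 in shBMAL1 and 696 and 1368 in the direct comparison; the members to 7 and 1, 4 and 1, and 3 and 5; the ATF4 targets to 7 lower and 1 higher in shARNT, 2 lower in shBMAL1 and 5 higher in the direct comparison; and the chaperones to 0 lower in shARNT, 1 lower and 0 higher in shBMAL1, and 1 lower and 0 higher in the direct comparison. At an adjusted p under 0.05, 3 members and 1 chaperone were higher in shBMAL1 and 1 chaperone was lower in the direct comparison.

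Replicate numbers did not pair the libraries: the correlation of deviations from group means between libraries of the same number ran from −0.154 to 0.105. With the replicate block the counts were 20 members lower and 4 higher in shARNT, 12 and 3 in shBMAL1, and 5 lower and 14 higher in the direct comparison, with 1 chaperone higher in shBMAL1 and 1 lower in the direct comparison. The cause was not tested.

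With 1 library left out, members higher ran from 2 to 4 in shARNT and from 2 to 4 in shBMAL1, chaperones higher in shBMAL1 from 1 to 2, and chaperones lower in the direct comparison from 1 to 3. Of the 25, 18 and 23 members called, 22, 12 and 17 were called in every such fit. Log2 fold changes near 0, uncalled in that comparison, changed sign: SEL1L in shARNT (−0.083 to 0.075, and 0.00038 with the replicate block), in shBMAL1 PSPH (−0.076 to 0.19), MTHFD2 (−0.13 to 0.035) and HSPA5 (−0.00017 to 0.045), and in the direct comparison DDIT3 (−0.00038 to 0.21), HERPUD1 (−0.051 to 0.063), XBP1 (−0.046 to 0.075) and ERN1 (−0.0070 to 0.28). Depth limits PHGDH, at 0 to 2 reads. Each target had 1 shRNA, so effects of the target and of that sequence cannot be told apart.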
